A study of Mus musculus with 12 samples.

Results

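The genes described here are 44 mouse genes that type I interferon induces, measured by RNA sequencing in 12 libraries of splenic dendritic cells (DCs). They were chosen by name from a list of classical interferon-stimulated genes and not by a rule on their values. Earlier results of these data were known when they were chosen. Each name was matched through its Ensembl identifier. All 44 were found among the 57009 identifiers of the count table, and all 44 were among the 14413 genes with enough counts to be tested. The DCs of every group came from C57BL/6 mice that had been injected with B16 tumour cells secreting Flt3 ligand, which expands DCs in the spleen, and beads removed lymphocytes and macrophages. The DCs were then cultured for 3 h alone (DC only), with the bacterial product lipopolysaccharide (LPS), with syngeneic C57BL/6 effector memory T cells (SynTem), or with memory T cells that were alloantigen-specific and of BALB/c origin (AlloTem). After culture, DCs were sorted on CD11b and CD11c, and each group had 3 libraries. The T cells of SynTem and AlloTem also differed in strain, so an effect of strain and one of alloantigen recognition cannot be told apart. Each library also has a deposited batch number (1, 2 or 3), with no word on what a batch was, and libraries are named here by group and batch. Whether replicates were separate animals or cultures is not stated in the labels. P-values therefore reflect the spread among these libraries only, and that spread may be technical.

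Type I interferons are small secreted proteins that bind the IFNAR1 and IFNAR2 receptor chains and, through JAK kinases, activate a transcription factor complex that contains STAT2 and IRF9. That complex binds a DNA motif called the interferon-stimulated response element in front of its target genes. DCs both produce and sense interferon, and the target genes restrict viruses, sense viral nucleic acid and limit the signal itself. LPS can induce interferon beta in DCs through TLR4, TRIF and IRF3, so an interferon response can follow LPS with a delay. Interferon gamma, the interferon of T cells and NK cells, uses another receptor and induces an overlapping set of genes.

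The response element is shown for 4 genes that hold a match and for Samd9l, which does not, as examples and not as a rule. The letters GAAA, any 2 bases and GAAA again were used as a simple form of it and were searched on both strands in the 250 bases before each start site, in RefSeq promoter windows of build GRCm38.p6. Of 33 members with such a window, 14 held the motif (42.4%), against 936 of 27025 genes (3.46%). The letters TTCNNNGAA, a simple form of the gamma-activated site found at genes that interferon gamma induces, were in 4 of the 33 members (12.1%) and in 8.13% of all genes. A match is a description of the letters and not evidence of binding. Each line gives 100 bases within the 250 before the start site, 5′ to 3′ on the gene's strand, with every match to this response element motif, or to its reverse complement, in capitals.
Isg15: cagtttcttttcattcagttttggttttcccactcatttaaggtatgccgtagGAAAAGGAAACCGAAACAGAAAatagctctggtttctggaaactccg
Oas1a: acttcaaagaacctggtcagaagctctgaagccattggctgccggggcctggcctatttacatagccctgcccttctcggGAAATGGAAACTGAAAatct
Oas3: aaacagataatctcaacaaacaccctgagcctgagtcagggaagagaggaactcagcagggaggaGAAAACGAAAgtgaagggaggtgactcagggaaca
Rsad2: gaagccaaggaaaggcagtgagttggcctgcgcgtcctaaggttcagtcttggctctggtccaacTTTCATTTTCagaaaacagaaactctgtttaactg
Samd9l: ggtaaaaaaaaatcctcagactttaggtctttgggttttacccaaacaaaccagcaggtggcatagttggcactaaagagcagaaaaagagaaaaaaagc
These windows lie at chr4:156200850-156200949 (Isg15), chr5:120907526-120907625 (Oas1a), chr5:120777700-120777799 (Oas3), chr12:26456538-26456637 (Rsad2) and chr6:3399572-3399671 (Samd9l), all on the minus strand. Isg15 held 3 overlapping matches and Oas1a held 2, the nearest starting at position -14 from the start site of Oas1a. Rsad2 held 1 on the other strand. Samd9l held none in its 250 bases.
Holding the motif did not separate the genes that varied from those that did not. With the span of a gene defined as the ratio of its highest to its lowest library after adding 0.5 CPM to both, the 14 genes with the motif spanned 1.78 times (Ifi203) to 24.0 times (Ifit3), with a median of 10.6. The 19 without it spanned 1.67 times (Samd9l) to 54.4 times (Slfn1), with a median of 6.28, so the ranges overlapped. Ifi44, Oasl1, Oasl2 and Isg20 varied widely without a match, while Stat2 and Ifi203 held 1 each and varied little.

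Total counts were between 13903574 and 21861156 per library. The DC markers Itgax (261.2 to 470.2 CPM) and Flt3 (316.1 to 460.5 CPM) were present in every library, where CPM is a count scaled to a common library total. Summed T cell markers (14 genes) were 34.3 to 53.8 CPM in DC only, 37.2 to 82.7 in LPS, 180.6 to 483.1 in SynTem and 90.8 to 169.0 in AlloTem. Xist, which coats and silences the second X chromosome of females, was 610.0 to 1188 CPM in batches 1 and 2 apart from SynTem 2. In SynTem 2 and SynTem 3 it was 312.1 and 455.1 CPM. In DC only 3, LPS 3 and AlloTem 3 it was 137.6 to 145.7 CPM. The summed level of 4 Y-linked transcripts was 203.8 to 219.6 CPM in those 3 libraries, 175.1 in SynTem 2, 130.9 in SynTem 3 and 0 to 10.3 in the 7 others.

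The interferon-stimulated genes varied widely between libraries of the same culture. The median level over the 44 genes was 88.4, 88.1 and 12.7 CPM in DC only libraries 1 to 3. It was 51.8, 94.6 and 11.5 CPM in LPS, 65.5, 20.6 and 50.1 CPM in SynTem, and 48.7, 97.6 and 15.4 CPM in AlloTem. In 3 of the 4 groups the library of batch 3 was therefore the low one, and in SynTem it was the library of batch 2. Every group held at least 1 high and 1 low library, so the medians of the 4 groups overlapped. In RNA from bulk cells, fewer cells of one kind and less RNA per cell cannot be told apart.

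**Figure D1:**
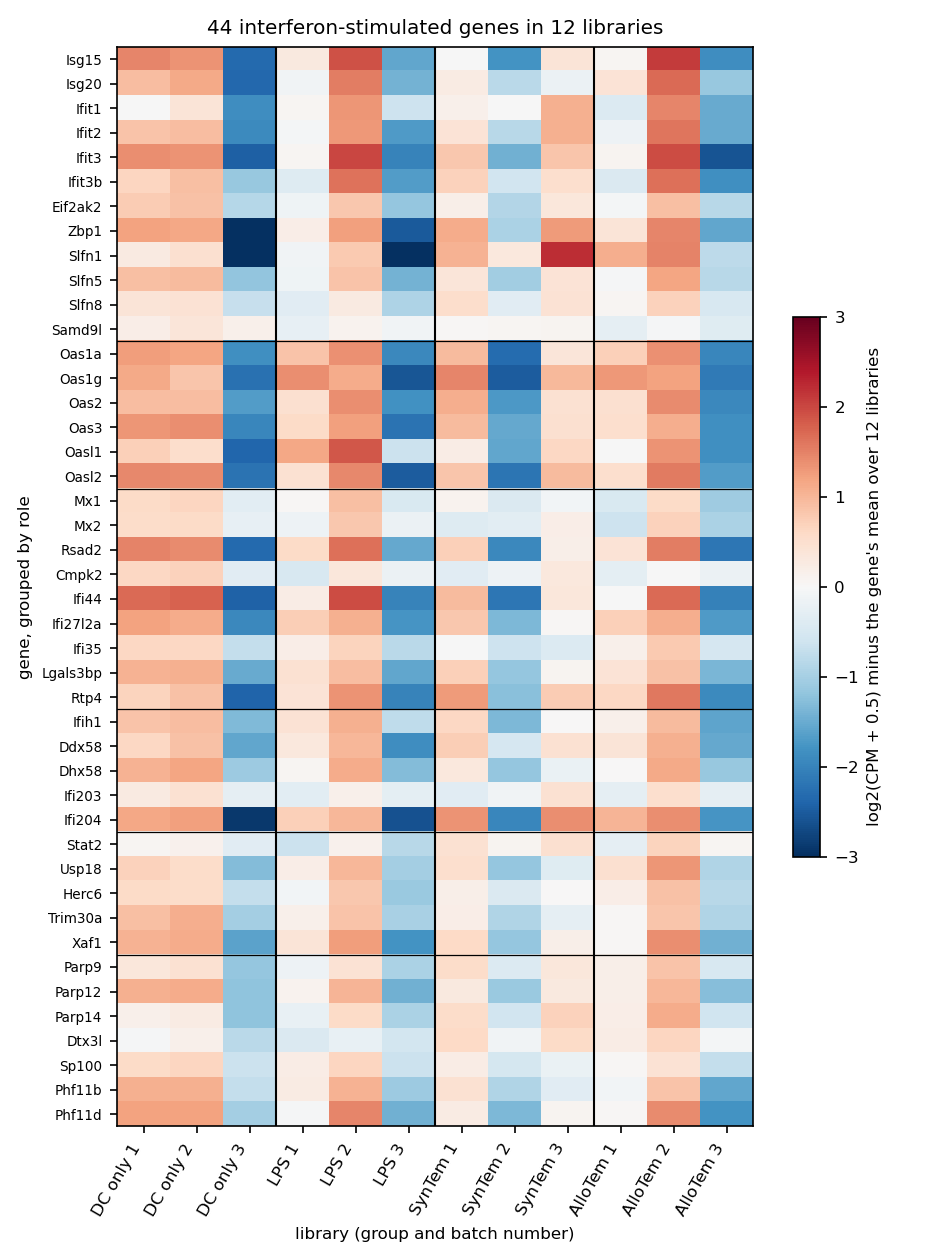
Each row is 1 of the 44 genes, ordered by role with lines between roles, and each column is 1 of the 12 libraries. Colour is log2(CPM + 0.5) minus the gene's mean over the 12 libraries. DC only 3, LPS 3, SynTem 2 and AlloTem 3 are blue for nearly all rows, while Samd9l, Cmpk2, Stat2 and Dtx3l stay pale.

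Among the inhibitors of translation and of viral RNA, Isg15 encodes the ubiquitin-like protein that is attached to viral and host proteins. Isg15 (ENSMUSG00000035692, chromosome 4, 156199424 to 156200818, GRCm38) was at 40.0, 36.8 and 2.40 CPM in DC only, 17.4, 54.6 and 4.42 in LPS, 13.9, 3.74 and 18.4 in SynTem, and 14.6, 62.1 and 3.49 in AlloTem. The 4 ranges overlapped, and the group means were 26.4 ± 20.8, 25.5 ± 26.1, 12.03 ± 7.53 and 26.7 ± 31.1 CPM (SD, n = 3 each). Ifit3, which binds viral RNA together with Ifit1, was at 20.7, 19.9 and 0.980 CPM in DC only and at 30.9 and 0.850 CPM in AlloTem 2 and AlloTem 3. Ifit1, which binds RNA lacking a host cap, was lower in general, from 1.18 CPM in DC only 3 to 16.3 CPM in AlloTem 2. Zbp1, a sensor of Z-form nucleic acid, was at 88.9, 86.6 and 4.41 CPM in DC only. Eif2ak2, the kinase PKR that stops translation, varied less, from 28.0 CPM in LPS 3 to 118.3 CPM in AlloTem 2.

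Samd9l (ENSMUSG00000047735, chromosome 6, 3372257 to 3399572), which restrains translation and cell growth, did not follow the others. It was at 239.7, 269.6 and 233.6 CPM in DC only, 175.0, 226.4 and 194.9 in LPS, 215.1, 218.4 and 221.3 in SynTem, and 174.1, 203.5 and 161.1 in AlloTem. Its span was 1.67 times, the smallest of the 44 genes, against 21.6 times for Isg15. The Slfn genes, a family of growth regulators and restriction factors, ranged from a span of 3.04 times (Slfn8) to 54.4 times (Slfn1).

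The 2-5A synthetases make the short adenylate chains that activate RNase L, which degrades RNA. Oas3 was at 170.3, 178.8 and 17.2 CPM in DC only, 100.3, 160.5 and 14.3 in LPS, 130.4, 23.1 and 94.2 in SynTem, and 96.9, 144.8 and 18.5 in AlloTem. Oas1a was at 107.4, 102.5 and 12.1 CPM in DC only, and at 85.9, 8.55 and 57.5 CPM in SynTem. The 6 genes of this group spanned 10.2 times (Oas2) to 19.1 times (Oasl1) between their lowest and highest library. Oas1a and Oas1g share 57.6% and 45.2% of their 50-base stretches with each other, and Ifit3 and Ifit3b share 51.2% and 44.5%, so the split of reads within these pairs is uncertain.

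Rsad2 (ENSMUSG00000020641, chromosome 12, 26442746 to 26456452) encodes viperin, which makes a chain-terminating nucleotide that blocks viral polymerases. It was at 66.0, 62.8 and 4.21 CPM in DC only, 34.7, 73.7 and 7.67 in LPS, 38.3, 5.70 and 26.2 in SynTem, and 30.7, 67.6 and 4.77 in AlloTem. Its neighbour Cmpk2, a mitochondrial nucleotide kinase, was at 53.0, 55.8 and 26.9 CPM in DC only and at 28.2, 34.0 and 30.5 CPM in AlloTem. Rsad2 thus spanned 15.8 times over the libraries and Cmpk2, the adjacent gene on the other strand, 2.24 times. Mx1 and Mx2, genes of the Mx GTPase family, spanned 3.89 and 3.42 times. Per kb of exon, Ifi27l2a was the highest of the 44 genes, with a mean level of 183.4 CPM per kb, followed by Trim30a (64.4), Lgals3bp (53.3), Ifi203 (49.7) and Phf11b (48.9). Ifit3b (1.05) and Mx2 (1.73) were the lowest.

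The RNA helicases Ddx58 (RIG-I), Ifih1 (MDA5) and Dhx58 (LGP2) sense viral RNA. Ifih1 was at 118.5, 124.7 and 25.6 CPM in DC only and at 72.4, 125.5 and 21.3 CPM in AlloTem. The 2 DNA-binding members of the Ifi200 family differed: Ifi204 spanned 19.5 times, and Ifi203 only 1.78 times, from 258.0 CPM in SynTem 1 to 459.1 CPM in AlloTem 2. Phf11b shares 26% of its 50-base stretches with Phf11a, and Ifi204 14.8% with Ifi211, so part of their counts may belong to relatives.

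Usp18 (ENSMUSG00000030107, chromosome 6, 121245906 to 121270917) removes ISG15 from proteins and shuts off the receptor. It was at 39.2, 35.5 and 9.60 CPM in DC only, 27.7, 48.7 and 11.8 in LPS, 34.6, 10.6 and 18.9 in SynTem, and 33.8, 61.4 and 12.8 in AlloTem. Stat2, the subunit of the interferon complex itself, was at 125.7, 131.0 and 94.5 CPM in DC only, 76.7, 130.4 and 67.3 in LPS, 163.7, 127.4 and 167.7 in SynTem, and 99.5, 190.4 and 125.4 in AlloTem. Usp18 followed the common pattern, whereas Stat2 was not lowest in batch 3 of AlloTem. Dtx3l, a ubiquitin ligase that works with the ADP-ribosyltransferase Parp9, was at 131.4, 148.6 and 77.1 CPM in DC only, 100.03, 114.3 and 92.3 in LPS, 202.0, 125.3 and 199.9 in SynTem, and 157.3, 211.4 and 129.4 in AlloTem. Dtx3l and Parp9 overlap on opposite strands in 8% and 9.4% of their exon bases, and the strand setting of the counts is not given in the sources used here.

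**Figure D2:**
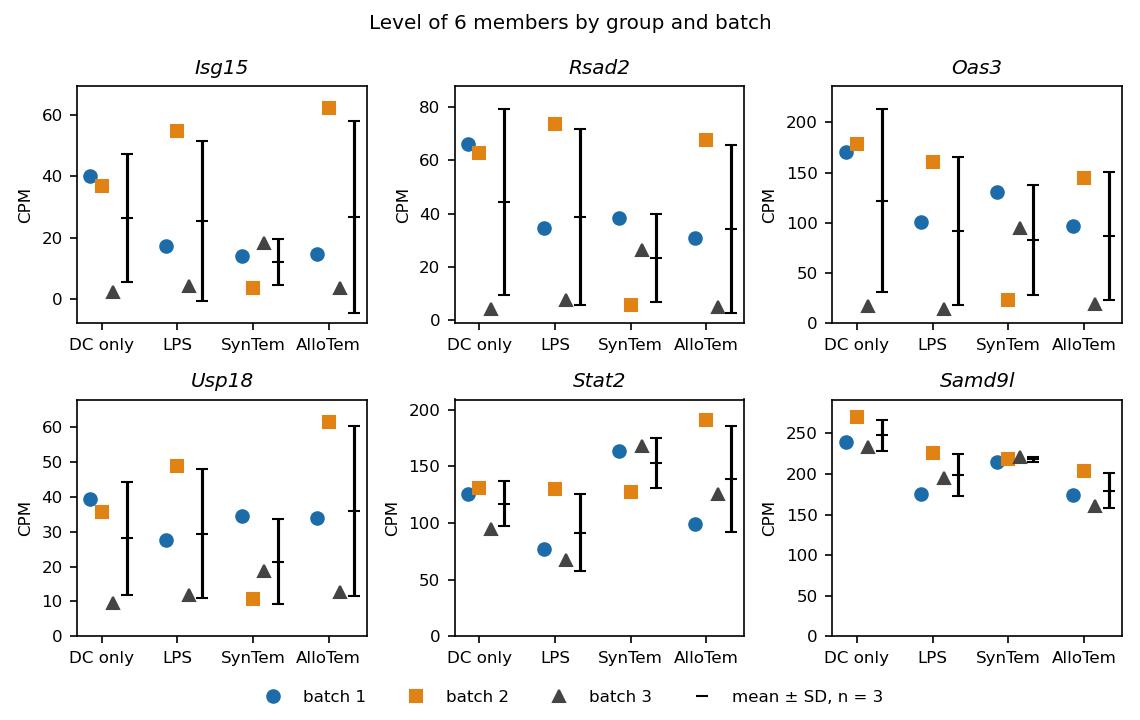
CPM of Isg15, Rsad2, Oas3, Usp18, Stat2 and Samd9l in each library, with marker shape and colour for the batch and, beside them, the mean ± SD of each group (n = 3). For Isg15, Rsad2, Oas3 and Usp18 the triangles of batch 3 lie at the bottom in DC only, LPS and AlloTem and the square of batch 2 does so in SynTem, while all Samd9l values lie between 161.1 and 269.6.

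The first question was whether T cell contact or LPS raised these genes over DCs alone. None of the 44 genes passed the test in any of the 5 comparisons between groups (quasi-likelihood test of edgeR, p adjusted by Benjamini-Hochberg over 14413 genes, threshold 0.05). The share of all genes called was 1.76% for AlloTem against DC only, 0.0902% for SynTem against DC only, 0% for LPS against DC only, 0.167% for AlloTem against SynTem and 0.451% for AlloTem against LPS. At an unadjusted p under 0.05 the members numbered 1, 0, 1, 1 and 1 in the same order. All genes at such a p numbered 1836, 1187, 531, 1381 and 937 of 14413. None passed a test for any difference among the 4 groups, where 1.26% of all genes did. These comparisons share control libraries, so their values are not independent of each other.

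In AlloTem against DC only the median log2 difference over the 44 genes was -0.11, with 19 of 44 above 0, against 0.00 over all genes. Samd9l had the smallest p: it was lower in AlloTem in all 3 batches and without overlap between the groups, by 0.46 on the log2 scale (log2 -0.46 ± 0.12 SE, edgeR adjusted p = 0.0848). With the batch number as a block it passed (log2 -0.47 ± 0.09, edgeR adjusted p = 0.0227). It was the 1 member called with the block, where 2.91% of all genes were. Isg15 differed by 0.02 ± 1.19, Ifit1 by 0.65 ± 0.87, Rsad2 by -0.37 ± 1.14 and Usp18 by 0.36 ± 0.71 (log2 ± SE, edgeR adjusted p between 0.851 and 0.998). These errors, from 0.71 to 1.19, leave differences of that size undetectable for these 4 genes. Cmpk2 (log2 -0.55 ± 0.29, edgeR adjusted p = 0.488) and Dtx3l (0.48 ± 0.27, adjusted p = 0.521) were next by p. The lower Samd9l level was not particular to AlloTem: SynTem and LPS were also below DC only without overlap.

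SynTem against DC only had a median log2 difference of -0.45, with 13 of 44 above 0. With the batch block the median was 0.13, with 27 of 44 above 0, so its sign differed between the fits with and without the block. The ratios within a batch went opposite ways: the median over the members was -0.40 in batch 1, -1.99 in batch 2 (0 of 44 higher) and 1.61 in batch 3 (43 of 44 higher). These ratios and those of AlloTem against SynTem depend on which library is SynTem 2 and which SynTem 3. How far the blocked medians do was not tested. Whether these 2 numbers were exchanged could not be settled from the labels, and nothing was swapped. Isg15 differed by -1.13 ± 1.22, Ifit1 by 0.78 ± 0.87, Rsad2 by -0.92 ± 1.15 and Usp18 by -0.40 ± 0.72 (edgeR adjusted p between 0.862 and 0.933). The smallest p was that of Dtx3l (0.56 ± 0.27, edgeR adjusted p = 0.618), followed by Samd9l (-0.18 ± 0.12, adjusted p = 0.728) and Cmpk2 (-0.42 ± 0.29, adjusted p = 0.767). Samd9l was lower in SynTem in each batch and without overlap.

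AlloTem against SynTem asked whether recognition of the DCs as foreign changed the genes. The median log2 difference was 0.20, with 32 of 44 above 0, and -0.25 with the batch block, with 7 of 44 above 0. Within batches it was -0.32, 2.22 and -1.59, so that nearly all members were higher in AlloTem in batch 2 (43 of 44) and all were lower in batch 3. Samd9l was lower in AlloTem in each batch and without overlap (log2 -0.28 ± 0.12, edgeR adjusted p = 0.470). Isg15 differed by 1.15 ± 1.22, Ifit1 by -0.13 ± 0.86, Rsad2 by 0.56 ± 1.15, Usp18 by 0.76 ± 0.72 and Ifi35 by 0.57 ± 0.46 (edgeR adjusted p between 0.736 and 0.977).

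**Figure D3:**
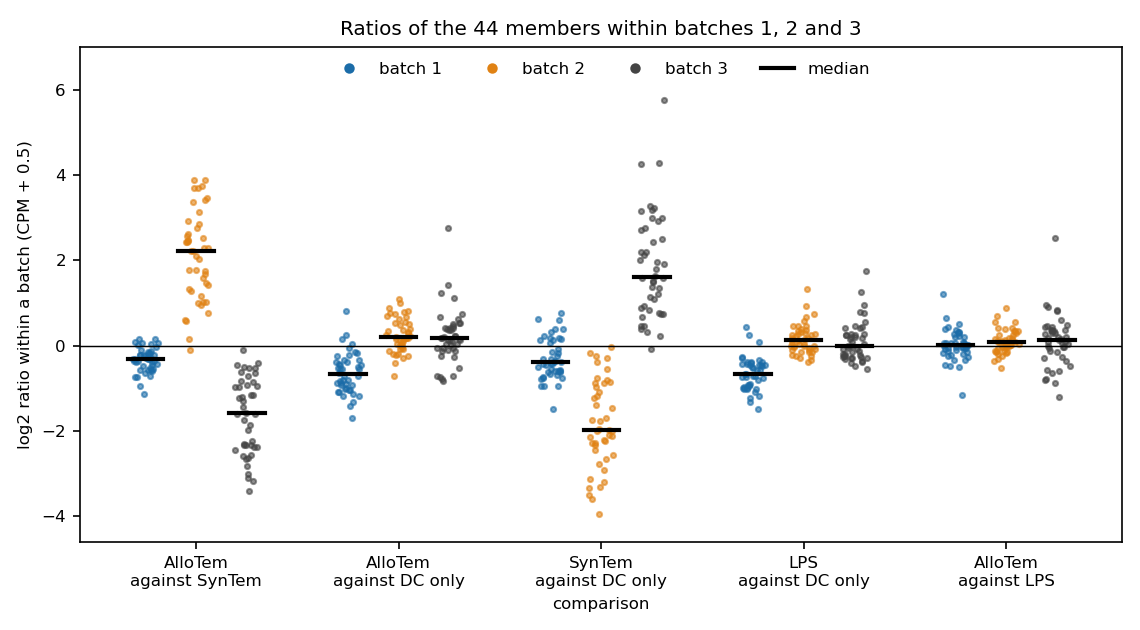
Each dot is the log2 ratio of 1 of the 44 genes between the 2 libraries of a batch, after adding 0.5 CPM, for 5 comparisons, coloured by batch, and bars are medians. For SynTem against DC only the medians are -0.40, -1.99 and 1.61 in batches 1 to 3, and for AlloTem against LPS they are 0.00, 0.08 and 0.13.

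LPS against DC only had a median log2 difference of -0.18, with 9 of 44 above 0. Within batches it was -0.67, 0.12 and -0.01. Of 18 early LPS genes, 18 had a positive difference, with a median of 1.55, and none passed the test, and edgeR called 0 of 14413 genes here (531 at an unadjusted p under 0.05) and DESeq2 10. Cxcl2, a neutrophil chemokine, was at 1.88, 1.43 and 1.47 CPM in DC only and at 36.4, 13.1 and 17.8 CPM in LPS (log2 3.81 ± 0.78, edgeR adjusted p = 0.999). Among the interferon-stimulated genes, 41 of 44 were lower with LPS in batch 1, 18 in batch 2 and 23 in batch 3. Oasl1, which restrains translation of Irf7, had the highest ratio of the 44 in each batch and was singled out for that. It was higher with LPS by 0.44, 1.33 and 1.75 on the log2 scale (log2 1.03 ± 1.01 in the fit, edgeR adjusted p = 0.999). Ifit1 was also higher in each batch, by 0.08, 0.94 and 1.25 (0.77 ± 0.87, edgeR adjusted p = 0.999). Isg15 (-0.05 ± 1.19), Rsad2 (-0.19 ± 1.14) and Usp18 (0.07 ± 0.71) had differences near 0, with adjusted p of 0.999 to 1.00. Samd9l (-0.32 ± 0.12), Cmpk2 (-0.45 ± 0.29) and Stat2 (-0.36 ± 0.28) had the smallest unadjusted p, also with an adjusted p of 0.999 in edgeR. Samd9l was lower with LPS in each batch and without overlap.

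AlloTem was also set against LPS, the other stimulus. The median log2 difference of AlloTem from LPS was 0.01, and 0.00, 0.08 and 0.13 within batches 1 to 3. Dtx3l was higher in AlloTem without overlap, at 166.0 ± 41.7 against 102.2 ± 11.1 CPM (SD, n = 3 each; log2 0.70 ± 0.27 SE, edgeR adjusted p = 0.584). Stat2 was higher in each batch, by 0.37, 0.55 and 0.89 (0.60 ± 0.28, edgeR adjusted p = 0.822). Isg15 (0.07 ± 1.19), Ifit1 (-0.12 ± 0.86), Rsad2 (-0.17 ± 1.14), Usp18 (0.29 ± 0.71) and Samd9l (-0.15 ± 0.12) had an edgeR adjusted p of 1.00.

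The genes were then compared between batch numbers. Batch 3 was the lowest of the 3 libraries in DC only, in LPS and in AlloTem for 40 of the 44 members, where 16.3% of all 14413 genes had that order. DC only 3 was lowest for 44 of 44, LPS 3 for 41 and AlloTem 3 for 41, against 39.4%, 35.4% and 34.6% of all genes. In SynTem the lowest library was SynTem 2 for 40 of 44, against 31.1% of all genes. Of the 40 genes with the batch 3 order, 39 also had SynTem 2 lowest. From batch 2 to batch 3 the median member fell by 2.26 in DC only, by 2.48 in LPS and by 2.48 in AlloTem on the log2 scale, and was higher by 1.25 in SynTem, with all 44 genes in the named direction in each group. From batch 1 to batch 2 the median difference was 0.07 in DC only, whose first 2 libraries were alike, 0.84 in LPS, 0.92 in AlloTem and -1.37 in SynTem.

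A test for any difference among the 3 batches over all 12 libraries called none of the members, nor any of all genes (0%). DESeq2 called 6 of 44 members, a share near that of all genes (16.3%). Without the 3 SynTem libraries it called 41 of 44 members, all lower in batch 3 (edgeR quasi-likelihood test, adjusted p under 0.05). Of the 14021 genes tested over these 9 libraries 14.5% were called, and 8.04% were called and lower in batch 3. SynTem was left out after its different order had been seen, so the calls and p-values over 9 libraries describe those libraries and do not support a batch difference across the study. The same 41 were called without only SynTem 2 and SynTem 3, where 12.9% of all genes were, and 31 were called without SynTem 2 alone, where 17.7% of all genes were. The median member was lower in batch 3 than in the mean of batches 1 and 2 by 2.19 on the log2 scale (log2 -2.19), against 0.01 for the median of all genes. What separated the batches was not tested.

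By role, the fall in batch 3 over these 9 libraries was largest in the 2-5A synthetases, where 6 of 6 genes were called (median log2 -3.08). Oas1g was 14.4-fold lower (log2 -3.85 ± 0.17 SE, edgeR adjusted p = 5.46e-05) and Oas1a 8.57-fold lower. Over all 12 libraries Oas1g was 5.02-fold lower (log2 -2.33 ± 1.15 SE, edgeR adjusted p = 0.337) and was not called. Of the inhibitors of translation and viral RNA 11 of 12 were called (median log2 -2.68). Ifit3 had the largest difference of the 44 genes, 16.5-fold (log2 -4.04 ± 0.49, adjusted p = 0.00774), and Isg15 was 10.1-fold lower. The GTPases and membrane effectors followed with 8 of 9 (median -2.29), among them Ifi44 (13.1-fold) and Rsad2 (9.82-fold). The sensors had 5 of 5 (median -1.98), with Ifi204 11.7-fold and Ddx58 5.30-fold lower. The signalling and feedback genes had 4 of 5 (median -1.61), with Usp18 3.54-fold lower, and the ADP-ribosylation and nuclear factors 7 of 7 (median -1.28), with Dtx3l only 1.43-fold lower. The 3 genes not called were Samd9l (log2 -0.13 ± 0.06, edgeR adjusted p = 0.0601), Stat2 (-0.39 ± 0.15, adjusted p = 0.0536) and Cmpk2 (-0.37 ± 0.21, adjusted p = 0.249).

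**Figure D4:**
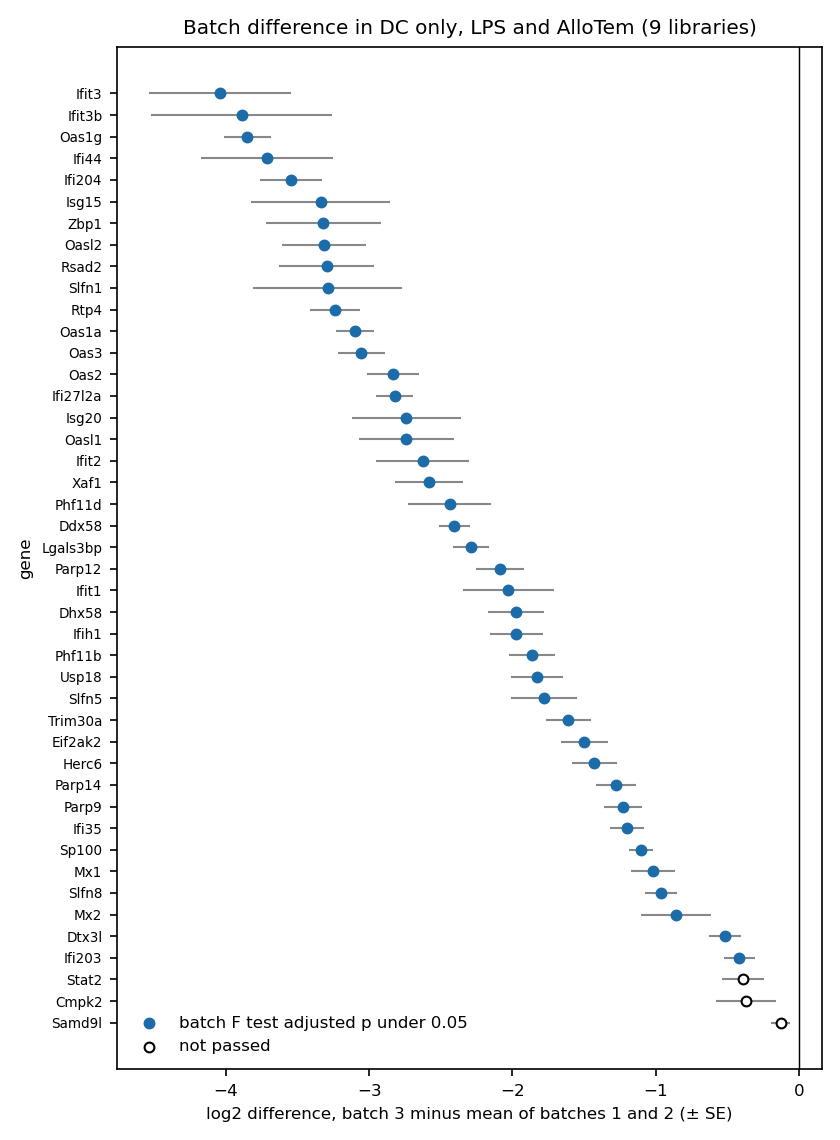
Log2 difference of each gene between batch 3 and the mean of batches 1 and 2 over the 9 libraries of DC only, LPS and AlloTem, with its standard error. Filled points passed the test among batches. The 44 values run from -4.04 (Ifit3) to -0.13 (Samd9l), and only Samd9l, Stat2 and Cmpk2 did not pass.

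Across the 12 libraries the members rose and fell together. The median Pearson r between 2 members was 0.89 over 946 pairs, and 863 pairs had an r above 0.5. For 35 of the 44 genes the r with the mean of the others was above 0.9, and the lowest values were those of Samd9l (0.35), Cmpk2 (0.55), Stat2 (0.56), Dtx3l (0.63) and Ifi203 (0.66). These are descriptions: the points share 12 libraries, their scaling and the batch pattern above. The 10 other genes whose log2 CPM was most like the members' mean had an r from 0.967 to 0.986 over the 12 libraries. They were Nmi, Ifi213, Irf7, H2-T24, Ube2l6, Trafd1, Xist, A530064D06Rik, Daxx and Uba7. Irf7 is the interferon-inducible factor that amplifies interferon production, and Ube2l6 and Uba7 are the conjugating and activating enzymes of ISG15.

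Xist stood among these 10 with an r of 0.969. Summed over the 44 genes, the level was 4864, 5136 and 1645 CPM in DC only, 3151, 5050 and 1595 in LPS, 3984, 1961 and 3759 in SynTem, and 3245, 5547 and 1771 in AlloTem. SynTem 3 had 455.1 CPM of Xist and 130.9 CPM of Y-linked transcripts, and its member sum was near that of SynTem 1. The sex-linked transcripts, the batch and the level of the interferon-stimulated genes moved together in DC only, LPS and AlloTem and cannot be told apart there.

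**Figure D5:**
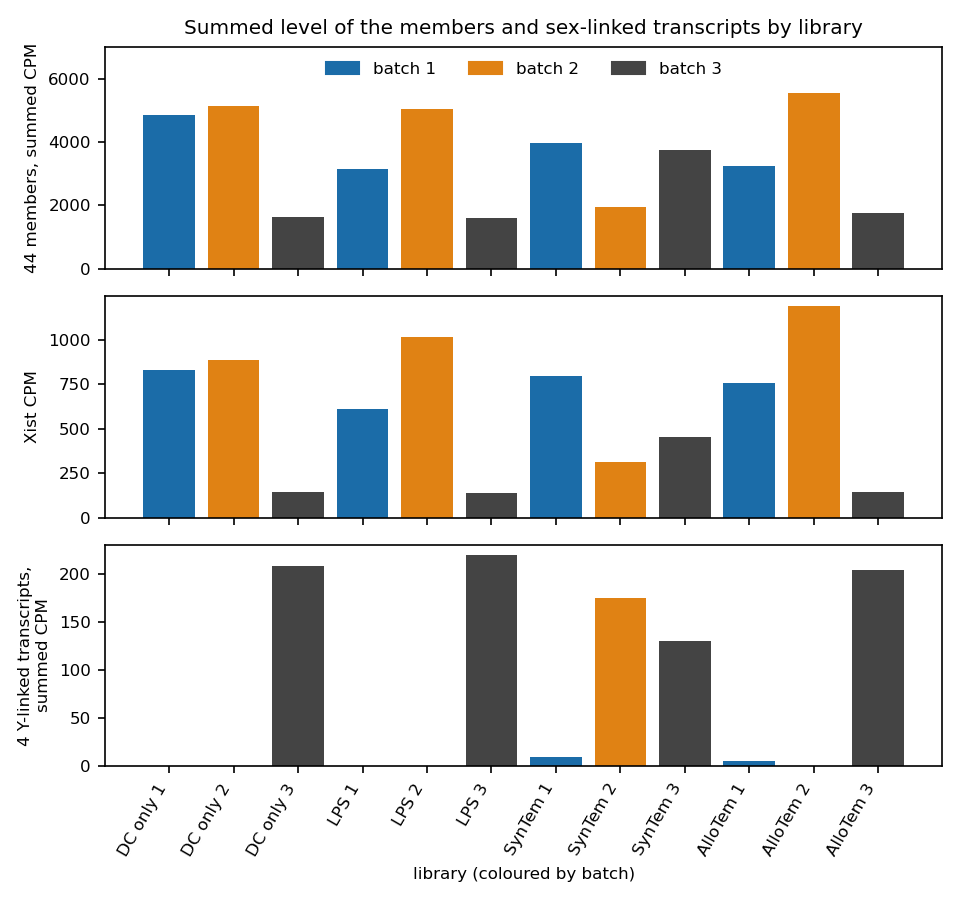
Bars give, for each of the 12 libraries, the summed CPM of the 44 genes, the CPM of Xist and the summed CPM of the Y-linked transcripts Uty, Kdm5d, Ddx3y and Eif2s3y, coloured by batch. DC only 3, LPS 3, SynTem 2 and AlloTem 3 have member sums of 1595 to 1961 CPM, the other libraries 3151 to 5547 CPM.

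Markers of other cells were compared between the batches over the 9 libraries of DC only, LPS and AlloTem. Of all genes, 48.6% were lower there in batch 3 than in the mean of batches 1 and 2. The share of all genes called was 14.5%, and 8.04% were called and lower in batch 3. Summed NK cell markers were 387.9 and 403.1 CPM in DC only 1 and DC only 2. In batches 1 and 2 they were 776.9 and 269.9 CPM in LPS, and 736.3 and 267.8 CPM in AlloTem. In LPS and AlloTem they thus already fell from batch 1 to batch 2, where the median member rose. In DC only 3, LPS 3 and AlloTem 3 the sum was 128.9, 110.2 and 135.5 CPM. All 6 NK markers were lower and 2 were called: Klrk1 and Ncr1, the last of which was at 0.330 to 0.840 CPM in those libraries. Of 10 macrophage and monocyte markers 9 were lower and 2 were called (Ly6c2 and Fcgr1). Fcgr1 is also on the list of genes more selective for interferon gamma. Summed macrophage and monocyte markers were 564.1 to 621.5 CPM in batch 3 and 627.9 to 1162 CPM in the others. Of 10 plasmacytoid DC markers 5 were lower, 2 of them called (Irf7 and Bst2, both induced by interferon), and Klk1 was called higher. Their sum was 419.1, 442.8 and 534.2 CPM in DC only 3, LPS 3 and AlloTem 3, below batches 1 and 2 of the same group (528.0 to 1010 CPM). A sum without Irf7 and Bst2 was taken after their values were seen. For the 8 others it was 358.8, 364.1 and 298.7 CPM in DC only 1 to 3. In batches 1 to 3 it was 219.4, 307.1 and 323.6 CPM in LPS, and 352.0, 382.0 and 381.0 CPM in AlloTem. The neutrophil markers had 5 of 7 lower, with 0 called lower and 1 called higher. The T cell markers had 11 of 14 lower, with 0 called lower and 1 called higher. The DC markers had 11 of 13 lower, with 4 called lower and 1 called higher. The B cell markers had 3 of 4 lower, with 0 called. The part of other cells in the batch pattern was not tested.

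Upstream of these genes the interferons themselves were nearly absent. Of 21 listed interferon genes only Ifng had enough counts to be tested. Ifnb1 had 9 counts in LPS 2, 5 in LPS 3, 3 in SynTem 3, 1 in AlloTem 2 and 0 in the 8 other libraries. The alpha interferons had at most 6 counts in a library (Ifna2 in SynTem 3). Ifng was at 0.689, 0.971 and 0.0490 CPM in DC only, 3.46, 0.119 and 0 in LPS, 3.64, 1.46 and 1.13 in SynTem, and 5.79, 1.54 and 0 in AlloTem. It was at or near 0 in the 3 low libraries of batch 3, but also low in LPS 2, where the members were high, and it was present in SynTem 2, where they were low. Its part in the pattern was not tested.

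Receptor and signalling genes of the pathway were compared between the batches in the same way, where 14.5% of all genes were called and 8.04% were called and lower. Over the 9 libraries Irf9, the DNA-binding subunit of the interferon complex, was called lower in batch 3 (log2 -0.60 ± 0.10 SE, edgeR adjusted p = 0.0123). Ifnar1 and Ifnar2, the receptor chains, differed by -0.04 and 0.14 and were not called. Of 6 interferon regulatory factors 2 were called lower, Irf7 (-2.48) and Irf5 (-0.43), while Irf3 (0.01) and Irf8 (-0.02) were not. Irf7 was at 297.2, 290.0 and 37.9 CPM in DC only, 150.7, 316.7 and 37.1 in LPS, 188.9, 50.5 and 146.1 in SynTem, and 174.8, 368.2 and 66.9 in AlloTem, the order of the members. Of 43 further interferon-stimulated genes 33 were called, 32 of them lower, such as Ifitm3 (-1.65), and 1, Tlr3, higher (0.63). Of 18 early LPS genes 3 were called lower.

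In AlloTem against DC only, pathway genes outside the 44 did pass the test, where 1.35% of all genes were called higher and 0.409% lower. Socs1, an inhibitor of JAK kinases that interferon gamma induces, was at 12.5, 9.60 and 2.16 CPM in DC only and at 91.0, 241.9 and 93.1 CPM in AlloTem, a 17.7-fold rise (log2 4.14 ± 0.79, edgeR adjusted p = 0.0293; 0.0644 with the batch block). Socs3, a second inhibitor of the family, rose 19.3-fold (log2 4.27 ± 0.51, adjusted p = 0.00438). Tlr9, a sensor of DNA, fell to 0.460 of its level (log2 -1.12 ± 0.21, adjusted p = 0.0272). Of 16 sensors and adaptors 1 passed (lower), of 9 feedback inhibitors 2 (higher), of 9 receptor and JAK-STAT genes 0 and of 43 other interferon-stimulated genes 0.

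Genes more selective for interferon gamma had positive medians against DC only in both T cell cultures. Of 13 tested, 2 rose in AlloTem against DC only, Socs1 and Cd274 (the ligand of PD-1, 8.46-fold, edgeR adjusted p = 0.0359), and the median log2 difference was 1.68, against -0.11 for the 44 genes. In SynTem against DC only the median was 2.20 against -0.45, and none of the 13 passed. At an unadjusted p under 0.05 they numbered 10 of 13, and all genes 1187 of 14413. Iigp1, a GTPase that attacks vacuoles, was at 1.502, 2.57 and 0.392 CPM in DC only and at 15.8, 22.4 and 116.7 CPM in SynTem, a difference of 5.13 ± 1.04 (edgeR adjusted p = 0.120). In LPS against DC only the median of these 13 was -0.17. The difference between the 2 gene lists was not tested.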

How the data were processed

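RNA sequencing measured 12 libraries, 3 in each of 4 groups. The authors deposited raw counts per Ensembl identifier, unnormalized, with genome build mm10 per the submitters' processing notes. Aligner, counting tool and strand setting were not given in the sources used here. Names and coordinates came from GENCODE M21 (52080 of 57009 identifiers).

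Genes with few counts were left out (filterByExpr, minimum count 10, minimum total 15), leaving 14413. After TMM scaling, edgeR 4.0.16 (R 4.3.3) fitted group means to the 12 libraries by quasi-likelihood. P-values were adjusted by Benjamini-Hochberg over all genes and called under 0.05. Batch tests fitted batch terms beside the group means and tested for any difference among the batches. Within-batch ratios had 0.5 CPM added to both values, and correlations used log2 CPM with a prior count of 2. Fits were tested on simulated data with the same dispersion (spread beyond counting noise) for all genes and a batch change equal in every group. The members are unlike that, so the simulation does not show how well changes in them are found.

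The deposited batch number equalled the replicate number in 12 of 12 libraries and was taken to pair libraries. Deviations from group means correlated with a median of 0.247 over 18 same-number pairs (-0.249 to 0.632, 12 above 0.1) and -0.201 over others.

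The members and lists were chosen with earlier results of these data known. A gene of the pathway lists is not reported here. Isg15, Ifit1, Rsad2, Usp18 and the 3 members with the smallest p were named with a test in each comparison, and up to 3 genes by p for other lists. Alternatives were RLE and upper-quartile scaling, DESeq2 1.42.0, limma voom (3.58.1), no filter, a 5 CPM filter, only the libraries compared, the batch block and leaving out each library. A Y-linked covariate and leaving out pairs of libraries or SynTem were added after the data were seen.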

Additional observations from a re-analysis of the deposited data

Results flagged for a closer look

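The difference between batch 3 and batch 2 had the opposite sign in SynTem. The median log2 difference over the 44 genes was 1.25 in SynTem, with 44 of 44 genes higher in batch 3, and -2.26 in DC only, -2.48 in LPS and -2.48 in AlloTem, with 0 of 44 higher in each. It stood out because every gene moved one way in SynTem and the other way in the 3 other groups. With 1 library per group and batch, this difference between groups was not tested. Whether the numbers of SynTem 2 and SynTem 3 were exchanged could not be settled from the labels.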

How the results depend on the processing

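In the 5 comparisons between groups, no member was called under the other scalings, limma voom, the filters, only the libraries compared or leaving out any 1 library. RLE and upper-quartile scaling moved the median of all genes by less than 0.02 (log2). With the batch numbers as a replicate block, 1 member was called in AlloTem against DC only, where 2.91% of all genes were. DESeq2 (4.7% of all genes) and the Y-linked covariate (4.15%) likewise called 1 member there. It was Samd9l each time, and the block changed no other call among members. The covariate also called 2 members among the 4 groups (Ddx58 and Dtx3l), where 2.59% of all genes were called. For the batches, DESeq2 called 6 (16.3% of all genes), leaving out 1 library gave 0 to 31 (31 without SynTem 2, 17.7% of all genes), leaving out SynTem 2 with SynTem 3 gave 41 (12.9%), with DC only 2 26 (20.9%), and all SynTem 41 (14.5%). The cause of these changes was not tested.

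Medians over the members ranged, on leaving out 1 library, from -0.82 (AlloTem 2) to 0.29 in AlloTem against DC only, from -0.45 (AlloTem 2) to 0.63 (AlloTem 3) in AlloTem against SynTem, from -0.75 (DC only 3) to -0.12 (SynTem 2) in SynTem against DC only, from -0.76 (LPS 2) to 0.17 in LPS against DC only, and from -0.58 (AlloTem 2) to 0.76 (LPS 2) in AlloTem against LPS, where the covariate gave 0.37.

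Uncalled log2 differences of single genes changed sign as follows, and each stayed uncalled. With the block, Isg15 was at -0.19, -0.20 and -0.035 in AlloTem against SynTem, DC only and LPS, and Rsad2 at -0.47 in AlloTem against SynTem and 0.10 in SynTem against DC only. With the covariate, AlloTem against SynTem gave Isg15 -0.86, Rsad2 -1.06 and Usp18 -0.054. It gave SynTem against DC only Isg15 1.30, Rsad2 1.26 and Usp18 0.67. Isg15 and Rsad2 were at 0.18 and 0.090 in LPS against DC only, and Rsad2 at 0.21 and 0.12 in AlloTem against DC only and LPS. With voom, Isg15 and Rsad2 were at 0.18 and 0.14 in LPS against DC only, and Isg15 at -0.13 in AlloTem against LPS. Without SynTem 2 and 3, AlloTem against SynTem gave Ifit1 0.24 and Rsad2 -0.15, and SynTem against DC only gave Usp18 0.30. Without SynTem 2 and DC only 2, Usp18 was at 0.13 in SynTem against DC only, and Isg15 and Rsad2 at 0.27 and 0.14 in LPS against DC only.

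Leaving out 1 library, Isg15, Ifit1 and Rsad2 in AlloTem against SynTem ran from -0.42 to 1.68, -1.49 to 0.35 and -0.40 to 1.11. In AlloTem against DC only Isg15, Ifit1, Rsad2 and Usp18 ran from -1.54 to 0.55, -0.71 to 1.15, -1.32 to 0.16 and -0.27 to 0.77. In LPS against DC only they ran from -1.28 to 0.45, -0.012 to 1.27, -1.07 to 0.29 and -0.51 to 0.44, and in AlloTem against LPS from -1.49 to 1.30, -1.48 to 0.66, -1.13 to 0.70 and -0.34 to 0.87. Without AlloTem 2 or LPS 2 the lowest values arose.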

Other observations

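Slfn1, a regulator of T cell growth, had the widest span of the 44 genes (54.4 times, with 0.5 CPM added to both ends) and was singled out after its values were seen. It was at 13.5, 15.6 and 0.490 CPM in DC only, 10.1, 19.5 and 0.672 in LPS, 23.3, 13.9 and 53.4 in SynTem, and 24.0, 31.9 and 6.18 in AlloTem. SynTem 3, the highest, was 1 of the libraries with the most T cell marker RNA (386.8 CPM summed), and SynTem 2, with the most (483.1 CPM), was at 13.9 CPM. Its difference was log2 1.62 ± 1.16 in SynTem against DC only (edgeR adjusted p = 0.780).

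Cxcl10 is a chemokine that both interferons can induce, and the chemokine Cxcl9 was on the list more selective for interferon gamma. Cxcl10 and Cxcl9 were also singled out after their values were seen. Cxcl10 was at 1422 CPM in SynTem 3 and 595.2 CPM in AlloTem 2, against 7.59 to 167.9 CPM in the 10 other libraries. Cxcl9 was at 517.3 and 553.3 CPM in the same 2 libraries and at 4.996 to 70.9 CPM in the others. Isg15 was at 18.4 CPM in SynTem 3 and 62.1 CPM in AlloTem 2, so that SynTem 3 did not stand apart for Isg15.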
